A study of Mus musculus with 6 samples.

Results

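The tumour necrosis factor (TNF) superfamily and its receptors were examined in mouse T helper 9 (Th9) cultures, which make the cytokine IL-9. Members were taken by gene symbol, as every symbol that begins with Tnfrsf or Tnfsf and a digit plus a set of older names such as Cd27, Cd40, Fas, Lta and Tnf. The rule found 45 of the 23183 symbols counted, 27 receptors and 18 ligands. RNA sequencing compared 3 libraries of cells given 30 µM sphingosylphosphorylcholine (SPC, the d18:1 form), a lysosphingolipid, with 3 control libraries that received none. Both groups were wild-type C57BL/6N spleen CD4+ T cells, enriched as naive cells, that were activated for 3 days with plate-bound anti-CD3e and soluble anti-CD28 (1 µg/ml each) in medium with 10 ng/ml IL-4, anti-IFN-γ at 10 µg/ml and TGF-β1 at 2 ng/ml. Neither age nor sex of the mice is stated in the sources used, and the cells were not sorted for IL-9.

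Ligands of this superfamily are mostly trimeric membrane proteins, some of which are also shed, and their receptors recognise them through cysteine-rich repeats. The receptors signal through TRAF adaptors to NF-kappaB and kinase cascades, or, where the cytoplasmic tail holds a death domain, to caspases as well. On activated CD4 T cells several receptors act as co-stimulators, and in mice OX40 (Tnfrsf4), GITR (Tnfrsf18) and DR3 (Tnfrsf25) are known to promote IL-9 production when engaged.

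Libraries held 22002050 to 33049997 counts and the superfamily took 0.181% to 0.213% of them. T cell genes were abundant, with a summed level of 1637 to 1846 CPM (counts scaled to library size) for 7 CD4 T cell markers in SPC libraries and 1657 to 1786 CPM in control libraries. Among B cell markers, Ms4a1 was at 0 in all libraries, Pax5 did not exceed 0.0332 CPM in any, and Cd79b had 4.59, 3.60 and 4.09 CPM in SPC libraries and 3.22, 3.35 and 3.41 CPM in control libraries. The 6 dendritic cell markers summed to 4.16 to 6.35 CPM in SPC and 2.63 to 3.68 CPM in control libraries, mostly from Zbtb46, while Clec9a was at 0 in all and Itgax did not exceed 0.0869 CPM. The 7 macrophage and monocyte markers summed to 1.76 to 2.35 CPM in SPC and 1.96 to 2.32 CPM in control libraries. Among them Adgre1 had 0.182, 0.153 and 0.217 CPM in SPC libraries and 0.410, 0.697 and 0.818 CPM in control libraries and fell with the block (edgeR adjusted p = 0.03153), while Cd68 was higher in every SPC library and not called. Adgre1 passed the filter on low counts (0.36 CPM at the median depth) through the control libraries, where it was high, and nothing is read from its call. The 5 stroma and endothelium markers summed to 6.87 to 8.65 CPM in SPC and 8.14 to 13.6 CPM in control libraries, mostly from Pecam1, which also fell with the block (0.03539). The part of other cells in the values of the members was not tested beyond these levels.

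The changes called by the group-only test, which does not pair the libraries, were in CD30 ligand, its receptor CD30 and lymphotoxin beta. Tnfsf8, which encodes CD30 ligand, rose 1.95-fold with SPC, and Tnfrsf8, which encodes CD30, fell to 0.342 of its control level. Ltb, which encodes lymphotoxin beta, the membrane anchor of lymphotoxin heterotrimers, rose 1.45-fold. These 3 of the 37 members with enough reads to test were called by the edgeR quasi-likelihood test at an adjusted p under 0.05, which is 8.11% of the tested members, against 0.483% of all 12226 tested genes (2 members higher against a background of 0.327%, and 1 lower against 0.155%). Same-numbered SPC and control libraries deviated together, and with the replicate number as a block 18 of the 37 were called, 48.6% against 7.08% of all genes (11 higher, Cd70 among them, against 4.02%, and 7 lower against 3.07%). Lta, which was 1.43-fold higher and so close to Ltb, was among the 11. At an unadjusted p under 0.05 were 20 members in the group-only test (14 higher against a background of 5.86%, 6 lower against 4.37%), 54.1% against 10.2% of all genes. Among the 14, Cd70 reached the filter on low counts in 3 SPC libraries and 1 control library, and Tnfrsf11a in 3 and 0. Both could be tested because they were high with SPC, and nothing is read from the counts that hold them. DESeq2 called 8 members (7 higher, 1 lower), against 2.27% of all genes. In the group-only test none of the members was called without SPC library 2, control library 2 or control library 3 (18, 19 and 18 of them had an unadjusted p under 0.05 in edgeR), 1 was called without SPC library 3, and 2 without SPC library 1 or control library 1. Over all genes these fits called 6, 6, 28, 35, 66 and 38, in the order given. With the block, 13 to 21 members were called when a library number was left out. Without number 1 these were 21 of 36 members, beside 2112 of 12135 genes. Without number 2 they were 14 of 36, beside 699 of 12223 genes, and without number 3 they were 13 of 37, beside 563 of 12289 genes.

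The upstream sequences are shown for the 3 genes called by the group-only test. They are from RefSeq (GRCm38.p6, the assembly that mm10 names), on the strand of the gene, 5′ to 3′, cut off where the annotated gene begins. Capitals mark exact matches, on either strand, to a form of the kappaB motif (GGGA, any base, TTTCC) or to the AP-1 motif TGANTCA, with N for any base, which do not overlap here. The stretch for Tnfsf8 is chr4:63861348-63861534, minus strand, that for Tnfrsf8 is chr4:145315165-145315414, minus strand, and that for Ltb is chr17:35194257-35194438, plus strand.
Tnfsf8: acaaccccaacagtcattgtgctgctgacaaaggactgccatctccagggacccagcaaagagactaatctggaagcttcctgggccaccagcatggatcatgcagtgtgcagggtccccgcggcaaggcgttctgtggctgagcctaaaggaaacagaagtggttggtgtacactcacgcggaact
Tnfrsf8: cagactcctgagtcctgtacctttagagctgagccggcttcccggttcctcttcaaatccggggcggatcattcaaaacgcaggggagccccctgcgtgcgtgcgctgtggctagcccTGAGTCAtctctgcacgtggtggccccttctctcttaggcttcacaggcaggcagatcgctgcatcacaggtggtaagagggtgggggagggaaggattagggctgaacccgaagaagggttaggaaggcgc
Ltb: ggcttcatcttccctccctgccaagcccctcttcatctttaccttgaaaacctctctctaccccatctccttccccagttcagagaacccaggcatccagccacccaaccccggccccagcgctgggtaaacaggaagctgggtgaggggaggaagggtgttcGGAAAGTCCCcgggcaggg
In the 250 bases upstream of the RefSeq start, Ltb held 1 kappaB match, which began 87 bases before that start and read on the opposite strand, and Tnfrsf8 held 1 AP-1 match, 132 bases before its start. Tnfsf8 held neither. Among 32851 RefSeq windows of that length 0.356% held the kappaB letters and 6.75% the AP-1 letters. Of the 39 windows of the 35 members with an entry, 1 held the kappaB letters, that of Ltb, and 6 the AP-1 letters. A match describes letters and says nothing on binding.

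Tnfsf8 had 58.9, 82.7 and 81.1 CPM in SPC libraries 1, 2 and 3, against 35.6, 42.2 and 36.3 CPM in control libraries 1, 2 and 3. Every SPC library lay above every control library, with a log2 fold change of 0.96 ± 0.14 (SE, edgeR adjusted p = 0.0339 without and 9.185e-05 with the block). Tnfrsf8 had 4.89, 5.67 and 8.21 CPM in SPC libraries and 14.6, 16.5 and 23.6 CPM in control libraries. Here too the groups did not overlap, and SPC was the lower one (log2 fold change -1.55 ± 0.23, adjusted p = 0.0372 without and 9.325e-06 with the block). Library 3 was the highest of its group for the receptor in both groups. Set side by side per kilobase of annotated exon, CD30 mRNA stood at 0.0914, 0.0754 and 0.111 of CD30 ligand mRNA in SPC libraries and at 0.452, 0.430 and 0.715 of it in control libraries. The receptor was thus the scarcer of the pair in all 6 libraries, and more so in the SPC libraries. In bulk RNA, fewer cells of a type and less RNA per cell cannot be told apart. The call of Tnfsf8 was lost in the group-only test without any 1 library other than SPC library 1 (adjusted p between 0.05211 and 0.1502), and that of Tnfrsf8 without SPC library 1 (0.0698), SPC library 2 (0.1827), control library 2 (0.1378) or control library 3 (0.0519).

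**Figure D1:**
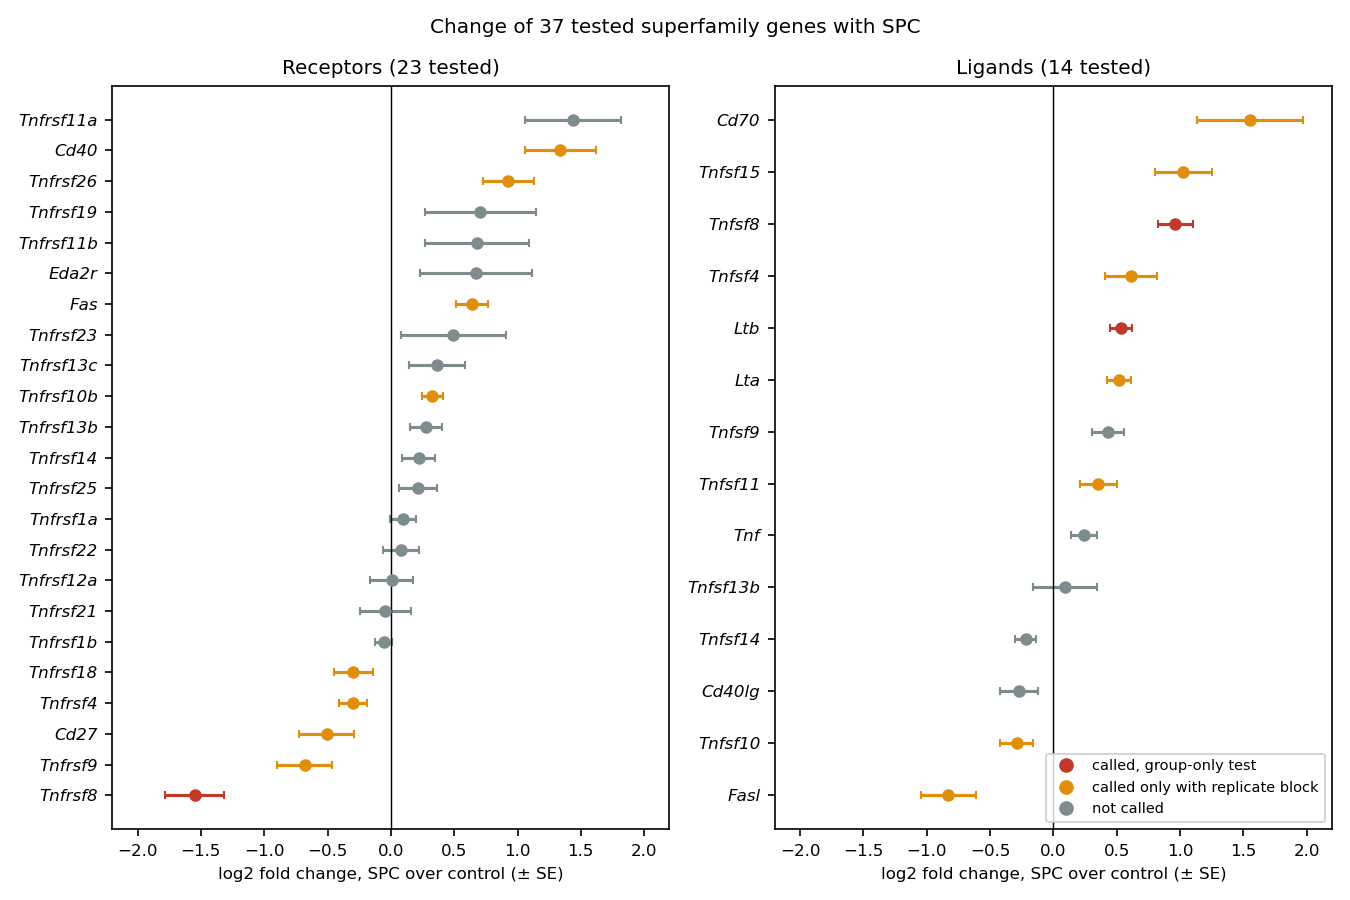
Log2 fold change, SPC over control, of the 23 tested receptors (left) and 14 tested ligands (right), with bars of 1 SE from edgeR; colours show which test called a gene. Tnfrsf8 is the lowest point at -1.55, and Tnfsf8 and Ltb are the called ligands at 0.96 and 0.54.

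Co-stimulatory receptors were mostly lower with SPC. Of their ligands, Tnfsf8, Tnfsf4, Tnfsf9 and Tnfsf15 were higher in every SPC library than in any control library, as were 8.67% of all tested genes. Cd40lg was lower in each library number. Of 7 receptors of this group, 5 were below 0 (median log2 fold change -0.30), and of 6 tested ligands 5 were above 0, where all tested genes had a median of 0.00 and 50.5% lay above 0. Among the ligands, Cd70 passed the filter on low counts mainly through the SPC libraries, where it was high, and nothing is read from the ligand counts that hold it. In the group-only test 1 receptor, Tnfrsf8, fell (0.155% of all genes did) and 1 ligand, Tnfsf8, rose (0.327% did). With the block, 5 receptors fell and 1 rose, and 4 ligands, Cd70 among them, rose and 0 fell (edgeR, against 4.02% higher and 3.07% lower over all genes). Of the 2 ligands that the block did not call, Tnfsf9 had an unadjusted p of 0.00823 and Cd40lg of 0.102 in the group-only test.

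Tnfrsf9, which encodes CD137, had 116, 133 and 166 CPM in SPC libraries, against 163, 199 and 302 CPM in control libraries. The groups overlapped, but in each library number the SPC library was the lower one. The share of all genes with the same direction in each library number was not counted. Such a direction only describes the values, here and for the other members. The log2 fold change of Tnfrsf9 was -0.68 ± 0.22 (edgeR adjusted p = 0.284), and it fell in the blocked test (0.0004648). Its ligand gene Tnfsf9 had 8.23, 7.62 and 7.39 CPM in SPC libraries and 5.37, 5.81 and 6.14 CPM in control libraries. Without overlap between the groups, the ligand still missed the threshold in both tests (0.43 ± 0.13, adjusted p = 0.238 without and 0.0551 with the block). Some 14.88% of the exonic bases of Tnfsf9 lie in an exon of Gm11110 on the opposite strand, and no source used here says whether strand was used in counting.

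Tnfrsf4, which encodes OX40, had 286, 262 and 312 CPM in SPC libraries, against 314, 336 and 408 CPM in control libraries. All SPC libraries lay below all control libraries by a small margin (log2 fold change -0.30 ± 0.11, edgeR adjusted p = 0.367 without and 0.01231 with the block). Its ligand gene Tnfsf4 had 15.3, 19.9 and 14.3 CPM in SPC libraries and 11.8, 12.9 and 7.55 CPM in control libraries. These too were apart, in the opposite direction (0.61 ± 0.20, adjusted p = 0.305 without and 0.006123 with the block). Tnfrsf18, which encodes GITR and lies next to Tnfrsf4 on chromosome 4, had 157, 147 and 190 CPM in SPC libraries, against 167, 189 and 251 CPM in control libraries. The groups overlapped, with the SPC library lower in each number (-0.30 ± 0.15, adjusted p = 0.578 without and 0.02352 with the block). Of the exonic bases of Tnfrsf18, 27.17% lie in an exon of the antisense gene Gm16008. No read was counted for its ligand gene Tnfsf18 in any library, which allows up to 0.0911 to 0.136 CPM per library (3 counts, for counting error only).

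Cd27, which encodes a co-stimulator of naive and memory T cells, had 4.34, 4.67 and 6.56 CPM in SPC libraries, against 6.43, 6.34 and 9.36 CPM in control libraries. It was lower in each number although the groups overlapped (log2 fold change -0.51 ± 0.22, edgeR adjusted p = 0.466 without and 0.0239 with the block). Cd70, its ligand gene, had 1.46, 1.03 and 0.913 CPM in SPC libraries and 0.650, 0.265 and 0.227 CPM in control libraries. It passed the filter on low counts through the SPC libraries, since 1 control library reached it, and was higher by 1.55 ± 0.42 on the log2 scale (adjusted p = 0.185 without and 0.01405 with the block). Library 3 was the highest of its group for Tnfrsf8, Tnfrsf9, Tnfrsf4, Tnfrsf18 and Cd27 in SPC and in control alike. The same held for members that were higher with SPC, such as Ltb, Fas and Tnfrsf26, so it is not particular to these 5 receptors. The share of all genes with this pattern was not counted.

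Cd40, best known as the receptor by which B cells and dendritic cells receive T cell help, was the co-stimulatory receptor with the largest positive log2 fold change. It had 8.38, 7.12 and 7.21 CPM in SPC libraries, against 4.28, 2.95 and 1.64 CPM in control libraries. Every SPC library was above every control library (1.34 ± 0.28, edgeR adjusted p = 0.0869 without and 0.001607 with the block). Ms4a1, Pax5 and Itgax were at or near 0 in both groups. Cd79b, the tested B cell marker, was higher in every SPC library (values above) and not called (log2 fold change 0.30 ± 0.16, adjusted p = 0.605 without and 0.2881 with the block). Zbtb46, which carries most of the dendritic cell sum, had 3.58, 4.17 and 5.78 CPM in SPC libraries and 2.43, 3.22 and 2.95 CPM in control libraries, and it rose with the block (0.04273). The part of such cells in the level of Cd40 was not tested. Cd40lg, the ligand gene that helper T cells express on activation, had 14.3, 17.5 and 13.4 CPM in SPC libraries and 19.8, 19.97 and 14.7 CPM in control libraries. It was lower in each number, with overlap, and passed neither test (-0.27 ± 0.15, adjusted p = 0.616 without and 0.1108 with the block).

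Tnfsf15, which encodes TL1A, the ligand of DR3, had 4.62, 7.96 and 7.34 CPM in SPC libraries, against 3.63, 3.25 and 2.82 CPM in control libraries. The groups did not overlap (log2 fold change 1.03 ± 0.23, edgeR adjusted p = 0.0984 without and 0.01064 with the block). The DR3 gene Tnfrsf25 had 25.2, 18.7 and 21.7 CPM in SPC libraries and 21.4, 15.4 and 19.7 CPM in control libraries, higher in each number but with overlap (0.22 ± 0.15, adjusted p = 0.708 without and 0.1267 with the block).

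**Figure D2:**
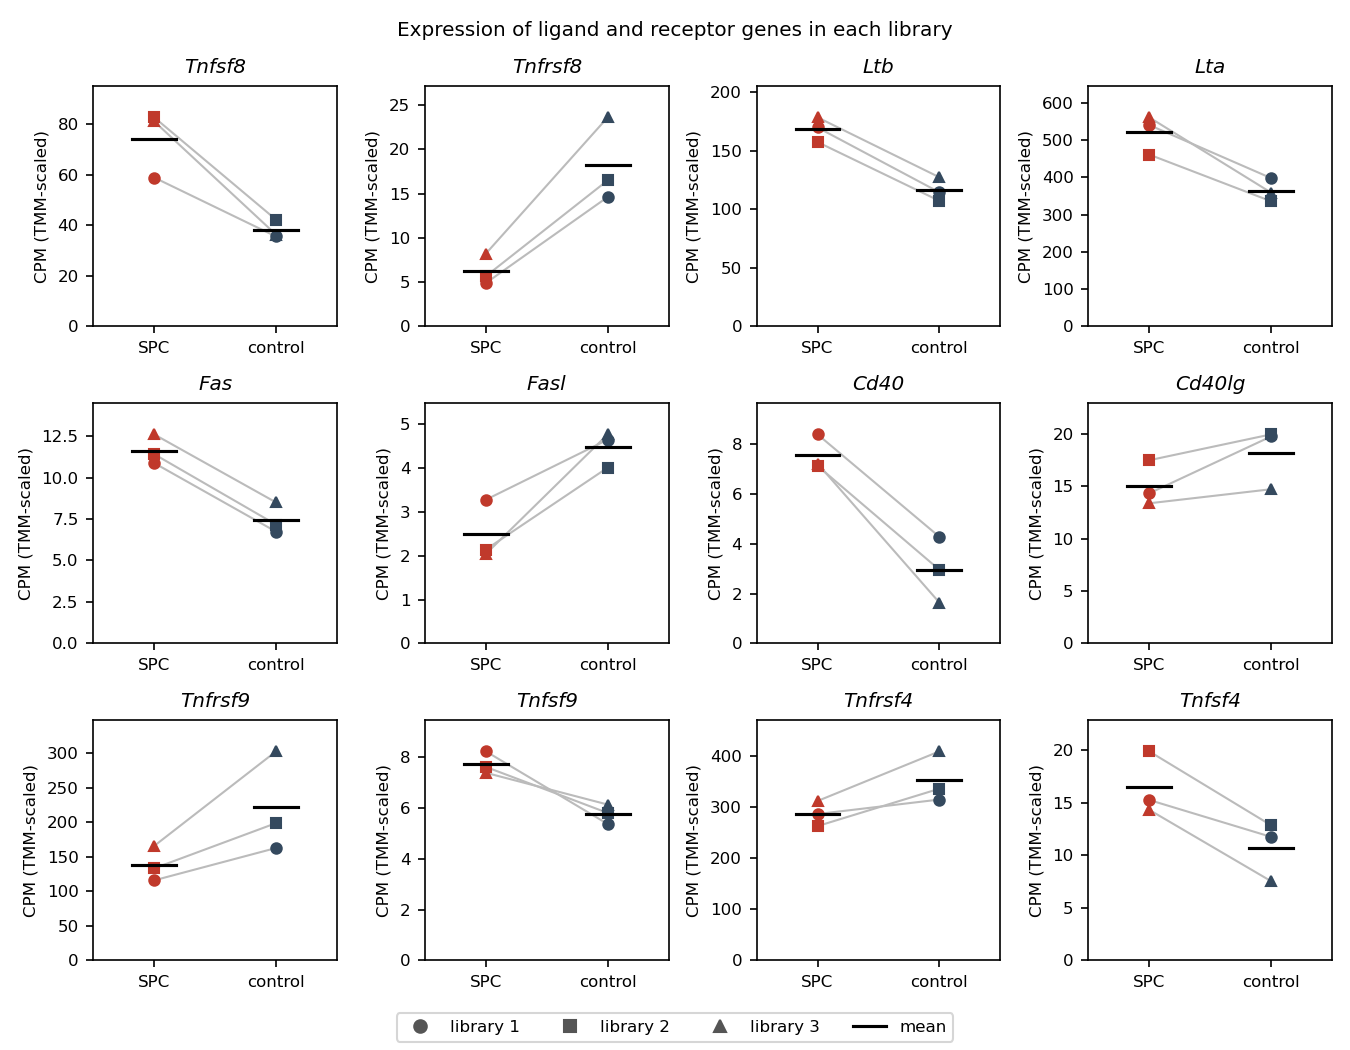
TMM-scaled CPM in each SPC (left in each panel) and control library (right) for 12 ligand and receptor genes; grey lines join libraries of the same number, symbols give the number and black bars the mean of 3. In Tnfrsf9 the groups overlap (116 to 166 CPM against 163 to 302 CPM), and every line runs in the same direction. The share of all genes with such lines was not counted.

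Among the TNF and lymphotoxin genes, the lymphotoxins were higher with SPC. None of the 3 tested receptors was called, and Ltbr had too few reads to test. Ltb had 169.7, 157.2 and 178 CPM in SPC libraries, against 114, 107 and 127 CPM in control libraries. The groups were apart, and Ltb rose (log2 fold change 0.54 ± 0.09, edgeR adjusted p = 0.0441 without and 0.0001827 with the block), although the group-only call was lost when any 1 of the 6 libraries was left out (adjusted p between 0.05033 and 0.2568). Lta, which encodes lymphotoxin alpha, had 541, 461 and 561 CPM in SPC libraries and 398, 336 and 359 CPM in control libraries. It too was higher in every SPC library, by 0.52 ± 0.10, missed the threshold in the group-only edgeR test and passed with the block (adjusted p = 0.0598 without and 0.000341 with the block) and in DESeq2 (0.0002254). Tnf, the cytokine gene that lies between them on chromosome 17, had 75.1, 74.4 and 71.5 CPM in SPC libraries and 67.9, 66.1 and 52.6 CPM in control libraries. Its groups were apart but the difference passed neither test (0.24 ± 0.10, adjusted p = 0.452 without and 0.06134 with the block).

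The receptors that bind TNF passed neither test. Tnfrsf1b, which encodes TNF receptor 2, had 87.1, 81.8 and 84.4 CPM in SPC libraries, against 90.9, 86.2 and 86.1 CPM in control libraries, and the 95% interval of its log2 fold change lay between -0.21 and 0.10 (edgeR adjusted p = 0.860). Tnfrsf1a, the death-domain receptor for TNF, had 14.7, 16.5 and 16.1 CPM in SPC libraries and 13.9, 14.1 and 16.2 CPM in control libraries, with an interval from -0.14 to 0.33 (adjusted p = 0.838). Ltbr, the receptor for lymphotoxin heterotrimers, which T cells are known to lack, had 13, 5 and 7 reads in SPC libraries and 6, 4 and 6 reads in control libraries, too few to test. Tnfsf14, which encodes LIGHT, had 20.05, 21.4 and 20.6 CPM in SPC libraries and 23.1, 23.9 and 25.2 CPM in control libraries. It lay lower in all SPC libraries without passing a test (-0.22 ± 0.08, adjusted p = 0.392 without and 0.1193 with the block). Its receptor gene Tnfrsf14, which encodes HVEM, had 6.68, 6.05 and 6.08 CPM in SPC libraries and 5.54, 5.44 and 5.18 CPM in control libraries, again apart and again not called (0.22 ± 0.13, adjusted p = 0.646).

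The group listed as death receptors also holds Tnfrsf26 and the TRAIL decoy receptor genes Tnfrsf22 and Tnfrsf23. Fas, Tnfrsf10b and Tnfrsf26 were higher in every SPC library than in any control library, as were 8.67% of all tested genes. Both ligands of the group were lower in each library number. Of 6 tested receptors 5 were above 0, where 50.5% of all tested genes were. Among the 5 were Tnfrsf22, at 0.08 ± 0.14, and Tnfrsf23, which reached the filter in 2 SPC libraries and 1 control library. Nothing is read from this count. The group-only edgeR test called 0 receptors (0.483% of all genes), and 3 had an unadjusted p under 0.05 (10.2% of all genes). DESeq2 called 2, Fas and Tnfrsf26 (2.27%), and 3, Fas, Tnfrsf10b and Tnfrsf26, rose with the block (4.02%). Both ligands were below 0 (median -0.56), and both fell with the block (3.07%). Fas, which encodes the receptor CD95, had 10.9, 11.4 and 12.6 CPM in SPC libraries, against 6.74, 7.17 and 8.50 CPM in control libraries. The groups were well apart (0.64 ± 0.13, adjusted p = 0.0779 without and 0.002959 with the block). Fasl, its ligand gene, had 3.28, 2.14 and 2.04 CPM in SPC libraries and 4.65, 4.01 and 4.77 CPM in control libraries. All SPC libraries lay lower (-0.83 ± 0.22, adjusted p = 0.173 without and 0.0146 with the block). Per kilobase, Fas mRNA was 3.11, 5.00 and 5.80 times as abundant as Fasl mRNA in SPC libraries and 1.36, 1.68 and 1.67 times in control libraries.

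Tnfsf10, which encodes the death ligand TRAIL, had 67.4, 87.7 and 65.5 CPM in SPC libraries, against 95.5, 95.8 and 78.4 CPM in control libraries. The groups overlapped, with SPC lower in each number (log2 fold change -0.29 ± 0.13, edgeR adjusted p = 0.490 without and 0.03372 with the block). Tnfrsf10b, the gene of the mouse TRAIL receptor that carries a death domain, had 42.6, 45.3 and 45.9 CPM in SPC libraries and 37.9, 36.0 and 32.6 CPM in control libraries. It was higher in all SPC libraries (0.33 ± 0.08, adjusted p = 0.162 without and 0.02817 with the block). Tnfrsf26, a mouse receptor gene of the same chromosome 7 cluster as the TRAIL decoy receptors, had 5.65, 6.05 and 8.87 CPM in SPC libraries and 3.35, 3.45 and 4.0 CPM in control libraries. The groups were apart (0.93 ± 0.20, adjusted p = 0.0965 without and 0.002679 with the block). The products of Tnfrsf22 and Tnfrsf23 are decoy receptors that bind TRAIL without a death domain. Tnfrsf22 had 6.17, 8.08 and 6.95 CPM in SPC libraries and 7.08, 6.40 and 6.501 CPM in control libraries (0.08 ± 0.14, edgeR adjusted p = 0.910). Tnfrsf23 had 0.304, 0.383 and 0.478 CPM in SPC libraries and 0.376, 0.199 and 0.227 CPM in control libraries (0.49 ± 0.42, adjusted p = 0.783). Both overlapped between the groups. Of the 50-base windows of the longest Tnfrsf22 transcript 27.71% recur in another gene, mostly Tnfrsf23, so reads may be split between the pair. Tnfrsf21, a death-domain receptor gene also called DR6, had 2.67, 3.52 and 2.74 CPM in SPC libraries and 2.70, 3.65 and 2.82 CPM in control libraries (-0.04 ± 0.20, adjusted p = 0.971).

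Tnfsf11, which encodes RANK ligand, had 203, 194 and 161 CPM in SPC libraries, against 167, 156 and 114 CPM in control libraries. The SPC library was the higher one in each number, with overlap between the groups (log2 fold change 0.35 ± 0.15, edgeR adjusted p = 0.4385 without and 0.0035 with the block). Its receptor genes were scarce. Tnfrsf11a, which encodes RANK, had 0.577, 0.651 and 0.608 CPM in SPC libraries and 0.274, 0.133 and 0.273 CPM in control libraries. No control library reached the filter on low counts for RANK, so that it could be tested only because it was higher with SPC, and neither test called it (1.44 ± 0.38, adjusted p = 0.1755 without and 0.06656 with the block). Tnfrsf11b, the gene of the soluble decoy osteoprotegerin, had 0.911, 0.919 and 1.48 CPM in SPC libraries and 0.753, 0.332 and 1.00 CPM in control libraries (0.68 ± 0.41, adjusted p = 0.662).

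The receptors for BAFF and APRIL, cytokines of B cell survival, were low and passed neither test. Tnfrsf13b, which encodes TACI, had 9.42, 7.85 and 9.65 CPM in SPC libraries, against 7.01, 7.43 and 7.77 CPM in control libraries (log2 fold change 0.28 ± 0.13, edgeR adjusted p = 0.517). Tnfrsf13c, the gene of the BAFF receptor, had 4.59, 4.94 and 4.09 CPM in SPC libraries and 4.34, 3.75 and 2.41 CPM in control libraries (0.36 ± 0.22, adjusted p = 0.667). The BAFF gene Tnfsf13b had 7.23, 6.05 and 3.95 CPM in SPC libraries and 6.36, 5.90 and 3.91 CPM in control libraries, and its values followed the library number more than the group (0.09 ± 0.25, adjusted p = 0.947). Tnfrsf12a, the TWEAK receptor gene, had 2.76, 2.79 and 2.52 CPM in SPC libraries and 2.74, 2.55 and 2.77 CPM in control libraries, with a 95% interval from -0.38 to 0.39. Eda2r and Tnfrsf19 stayed between 0.136 and 0.826 CPM in all libraries and were not called (0.67 ± 0.45 and 0.71 ± 0.44, adjusted p = 0.695 and 0.669). In all, 8 members failed the filter. Beside Ltbr and Tnfsf18 these were Tnfsf12, Tnfsf13, Tnfrsf17, Eda, Edar and Ngfr, with 0 to 4 reads in any library.

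**Figure D3:**
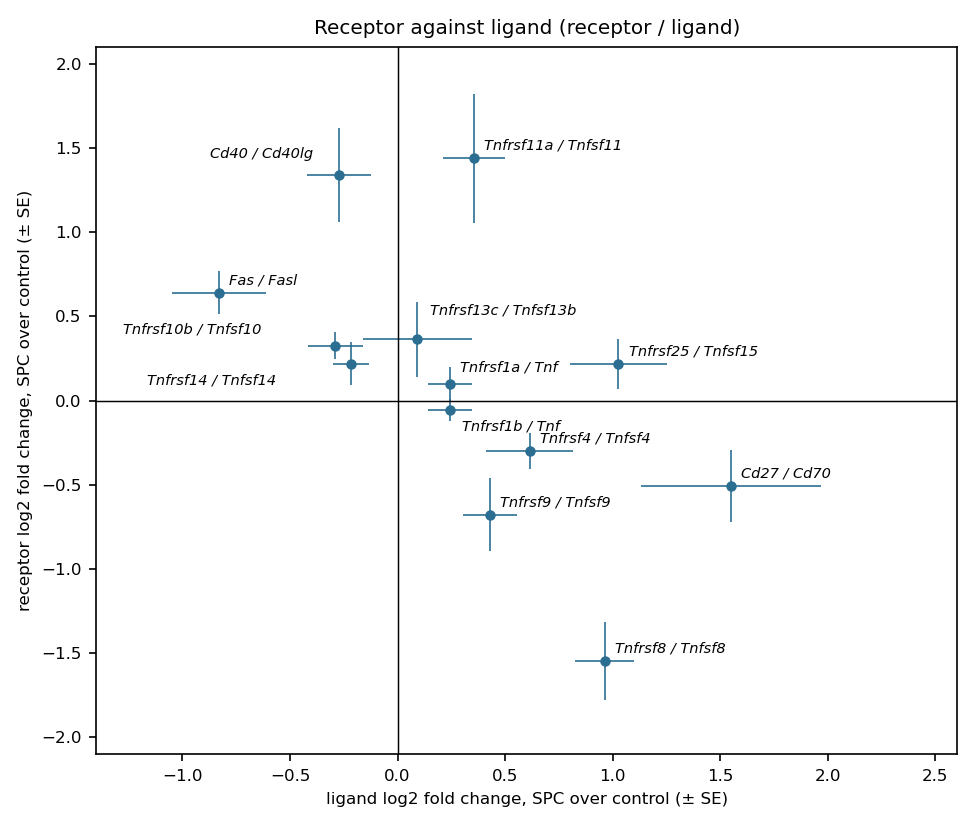
Log2 fold change of a receptor (vertical axis) against that of a ligand it binds (horizontal axis), SPC over control, for 13 pairs with both genes tested; bars are 1 SE. In 9 of the 13 pairs the receptor and ligand lie on opposite sides of 0, with Tnfrsf8 and Tnfsf8 at -1.55 and 0.96. Cd70 and Tnfrsf11a passed the filter on low counts mainly through the SPC libraries, and nothing is read from the count of pairs that holds them.

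Over all 21 receptor and ligand pairs with both genes tested, 13 had log2 fold changes of opposite sign and 8 of the same sign. Pairs that share a gene are not independent, so this is a description. Cd70, Tnfrsf11a, Tnfrsf11b and Tnfrsf23 reached the filter on low counts in fewer control than SPC libraries. Nothing is read from the counts of pairs, which hold them. Beside CD30, the pairs OX40 and CD137 had a lower receptor and a higher ligand, while CD40, Fas and the TRAIL receptor had a higher receptor and a lower ligand. Nothing is read from the signs of the CD27 pair, since Cd70 passed the filter mainly through the SPC libraries. Cd27 mRNA per kilobase was 1.08, 1.63 and 2.601 times that of Cd70 in SPC libraries and 3.58, 8.64 and 14.9 times in control libraries. Cd70 had 19, 8 and 5 reads in the control libraries, so this ratio is uncertain there and nothing is read from it. For OX40 the ratio of receptor to ligand was 25.3, 17.8 and 29.3 in SPC libraries, against 36.1, 35.2 and 73.0 in control libraries. For CD137 it was 6.67, 8.28 and 10.6 in SPC libraries, against 14.3, 16.2 and 23.4 in control libraries. For OX40 and for CD137 the ratio was lower in every SPC library than in any control library. For CD40 the ratio moved the other way, with 0.215, 0.149 and 0.198 in SPC libraries and 0.0794, 0.0543 and 0.0408 in control libraries. Ratios of TRAIL receptor Tnfrsf10b to Tnfsf10 were 0.610, 0.499 and 0.678 in SPC libraries and 0.383, 0.363 and 0.402 in control libraries, also without overlap.

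Levels of the members spanned a wide range. Per kilobase of annotated exon, Lta had the highest mean level of the superfamily in both groups, 377 ± 38.1 CPM per kb with SPC and 263 ± 22.7 in control (SD, n = 3 each). Tnfrsf4 followed with 210.0 ± 17.98 CPM per kb with SPC and 258 ± 36.2 in control, and in control its range overlapped that of Lta. Next, in the order of control means, came Tnfrsf18 (108 ± 14.8 with SPC, 133 ± 28.6 in control), Tnfrsf9 (50.8 ± 9.28 with SPC, 81.2 ± 26.7 in control), Ltb (111 ± 6.98 with SPC, 76.7 ± 6.72 in control), Tnfsf11 (83.3 ± 9.87 with SPC, 65.1 ± 12.6 in control) and Tnf (44.9 ± 1.14 with SPC, 37.9 ± 5.10 in control). The control ranges overlapped for Tnfrsf9, Ltb and Tnfsf11, and that of Tnfrsf9 also overlapped that of Tnfrsf18. In mean level per kilobase Ltb stood above Tnfrsf18 in SPC, where their ranges overlapped, and below it in control libraries. Tnfsf11 likewise stood above Tnfrsf9 in SPC and below it in control libraries. Tnfrsf8 had rank 26 of the 45 members in SPC and rank 17 in control libraries.

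**Figure D4:**
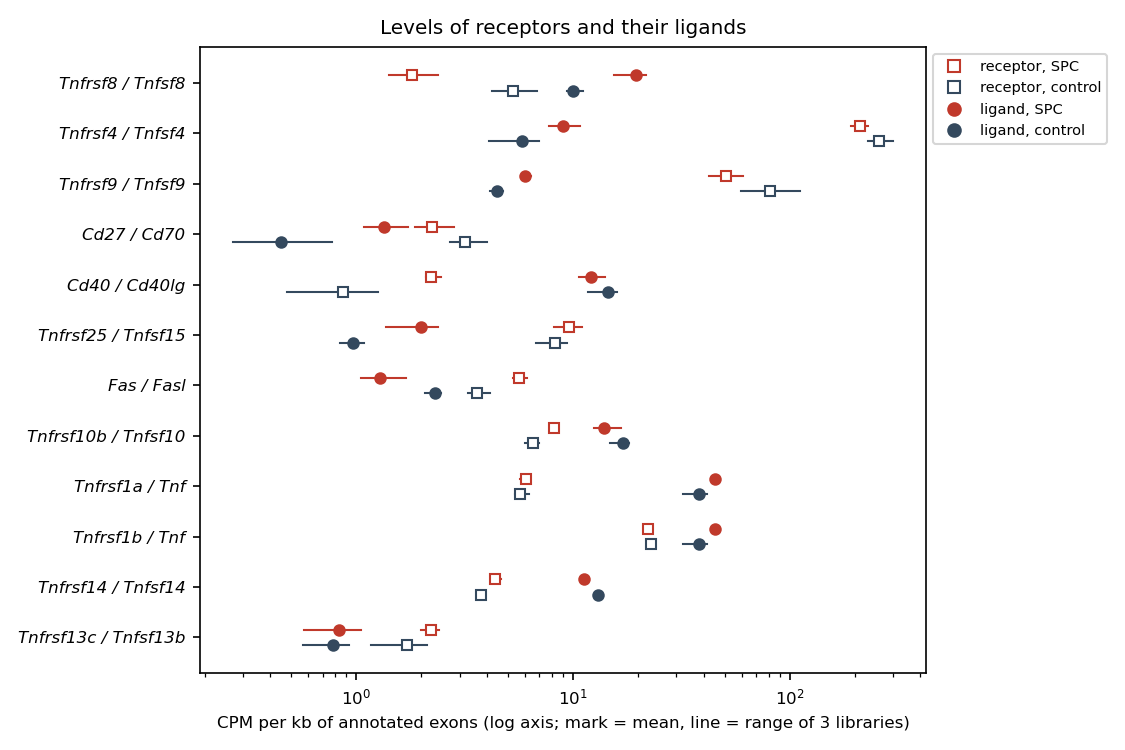
Level per kilobase (TMM-scaled CPM per kb, log axis) of receptors (open squares) and ligands (filled circles) for 12 pairs, SPC (red) above control (dark blue); marks are means and lines the range of 3 libraries. Receptor and ligand of CD30 stand at 1.81 and 19.5 CPM per kb with SPC, and at 5.27 and 9.99 in control.

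Many members sit in clusters (GENCODE M21, mm10, annotated genes with introns). Tnfsf15 (chromosome 4, 63727084 to 63745113) and Tnfsf8 (63831308 to 63861347) are neighbours on the minus strand, and both were higher in every SPC library. Ltb (chromosome 17, 35194439 to 35196320), Tnf (35199381 to 35202007) and Lta (35203165 to 35205351) were likewise all higher in every SPC library. Tnfrsf4 (chromosome 4, 156013843 to 156016612) and Tnfrsf18 (156026164 to 156028895) were both lower in each library number and had the same log2 fold change of -0.30. Tnfrsf8 (chromosome 4, 145267137 to 145315164) is next to Tnfrsf1b (145213463 to 145246870), and their log2 fold changes were -1.55 and -0.06. Other clusters held genes with log2 fold changes of opposite sign. Tnfsf9, Cd70 and Tnfsf14 on chromosome 17 had 0.43, 1.55 and -0.22, and Tnfsf4 and Fasl on chromosome 1 had 0.61 and -0.83. Over the whole superfamily, 20 of 37 tested members had groups that did not overlap in CPM, which is 54.1% against 16.5% of all tested genes (16 with SPC above control, against 8.67%, and 4 below, against 7.8%). Tnfrsf11a, Tnfrsf11b, Tnfrsf19, Cd70, Eda2r and Tnfrsf23 reached the filter in fewer control than SPC libraries, and Tnfrsf11a, Tnfrsf19 and Cd70 are among the 16.

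Genes that carry or restrain the signal of these receptors had a median change near 0. The list held 42 adaptors, kinases, NF-kappaB subunits, inhibitors and shedding proteases, all tested, with a median log2 fold change of 0.05 and 27 above 0 (64.3%, against 50.5% of all tested genes). It was chosen with earlier results of these data known, so its shares are a description. In edgeR, 2 of the 42 rose and 0 fell, where 0.327% and 0.155% of all genes did. At an unadjusted p under 0.05, 9 were higher and 2 lower, against 5.86% and 4.37% of all genes, and DESeq2 called 4, all higher, against 2.27%. With the block 7 rose and 1 fell, against 4.02% and 3.07%. Traf1, an adaptor induced by NF-kappaB, had 94.3, 95.8 and 118 CPM in SPC libraries, against 61.1, 57.3 and 67.6 CPM in control libraries (0.73 ± 0.11, adjusted p = 0.036 without and 6.393e-05 with the block). Nfkb2, the subunit of the noncanonical pathway used by CD40 and the lymphotoxin receptor, had 574, 563 and 623 CPM in SPC libraries and 430, 429 and 421 CPM in control libraries (0.46 ± 0.07, adjusted p = 0.0358 without and 0.0005134 with the block). Both rises were larger than the spread within the groups, which did not overlap.

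The inhibitor genes Nfkbia, Tnip1, Tnfaip3 and Cflar, and Relb, were called by edgeR with the block and not without it, and DESeq2 also called Nfkbia and Tnip1. Nfkbia, which encodes the inhibitor IkB-alpha, had a log2 fold change of 0.45 ± 0.09 (edgeR adjusted p = 0.073 without and 0.001169 with the block). Tnip1 and Tnfaip3, whose products act together to limit NF-kappaB signalling, had values of 0.35 ± 0.07 and 0.39 ± 0.14 on the log2 scale (without the block adjusted p = 0.0813 and 0.366, with it 0.002579 and 0.004386). Cflar, which encodes the caspase-8 inhibitor cFLIP, had 0.41 ± 0.13 (adjusted p = 0.269 without and 0.006202 with the block), and Relb, the partner of Nfkb2, 0.30 ± 0.08 (adjusted p = 0.163 without and 0.01513 with the block). Adam10, a protease that sheds several membrane proteins, Fas ligand among them, fell in the blocked test and had 201, 256 and 210 CPM in SPC libraries, against 305, 296 and 233 CPM in control libraries (-0.32 ± 0.13, adjusted p = 0.409 without and 0.03218 with the block). Of the genes that passed neither test, Nfkbie, Ripk3, Map3k14 and Otulin had the smallest p, with log2 fold changes of 0.23 ± 0.09, -0.28 ± 0.12, 0.22 ± 0.09 and 0.20 ± 0.09 (adjusted p between 0.392 and 0.489). Without SPC library 2, control library 1 or control library 2 no gene of the list was called in the group-only edgeR test, 1 was called without SPC library 3 or control library 3, and 4 without SPC library 1. Over all genes these fits called 6, 38, 6, 35, 28 and 66, in the order given.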

How the data were processed

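Total RNA (1.3 µg) of 6 cultures went into libraries made with a directional kit, per the labels' protocols. Each deposited file holds 1 raw read count for each gene symbol, made by the authors with TopHat on mm10, per the submitters' processing notes. The sources used here state neither the TopHat version nor the counting program, annotation and strand setting. No symbol stands for mitochondrially encoded genes.

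Counts were tested with edgeR 4.0.16 (R 4.3.3), with robust quasi-likelihood F tests, TMM scaling, filterByExpr (minimum count 10, minimum total 15) and group as the single term, over all 12226 genes kept, with Benjamini-Hochberg adjustment and a threshold of 0.05. CPM are TMM-scaled. Log2 fold changes are SPC over control ± SE, with the SE derived from the F statistic, and intervals are 95%. The filter corresponds to 0.36 CPM at the median depth. DESeq2 1.42.0, other scaling and filters, each library left out and the replicate number as a block were alternatives. The scripts were tested on simulated data. Levels per kb divide CPM by the union of exons in GENCODE M21, in which all 45 members were found.

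Same-numbered libraries deviated together across genes (r = 0.413, 0.208 and 0.508, all above the limit of 0.1), and the series text names separate experiments, so the numbers were taken to pair the samples. No 2 libraries of a group agreed within counting noise (chi-square per degree of freedom 4.82 to 34.8). P-values measure the spread between these libraries. An exact permutation test of 3 against 3 cannot go below 0.10, so none was made. Members and lists were chosen with earlier results of these data known. All tested members are named, those called, those with an unadjusted p under 0.05 and their partners with values in every library. Signalling genes are named where called in either fit, plus 4 others with the smallest p. A marker gene is not reported here. Genes outside these rules were chosen after their values were seen.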

Additional observations from a re-analysis of the deposited data

How the results depend on the processing

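The number of called members was 3 with DESeq2 size factors and with a stricter filter. It was 8 in the DESeq2 test (7 higher, 1 lower) and 8 without a filter on low counts, where Lta, Fas, Cd40, Tnfrsf26 and Tnfsf15 joined the 3. It was 18 with the replicate block, 0 to 2 without 1 library in the group-only test and 13 to 21 with the replicate block without 1 number (21, 14 and 13 without numbers 1, 2 and 3). Over all genes the main count of 59 became 279 in the DESeq2 test (of the 12650 genes it adjusted), 147 without a filter and 866 with the replicate block, lay between 6 and 66 without 1 library, and came to 2112, 699 and 563 with the replicate block without numbers 1, 2 and 3. The 2 called signalling genes became 4 in the DESeq2 test and 8 with the replicate block, 0 to 4 without 1 library and 18, 9 and 7 with the replicate block without numbers 1, 2 and 3. The number of pairs with the receptor above the ligand per kb in both groups was 7 by either transcript length. The causes of these moves were not tested. Where a library was left out, the fit also had fewer libraries. Log2 fold changes of the tested members and the named signalling genes, the genes followed singly, kept their sign under every alternative run, except for 4 members near 0. Leaving out 1 library gave -0.1796 to 0.1085 for Tnfrsf21, -0.0254 to 0.1741 for Tnfrsf22, -0.0311 to 0.0493 for Tnfrsf12a and -0.1136 to 0.2931 for Tnfsf13b. The replicate block without number 2 gave -0.0479 for Tnfrsf22 and -0.0433 for Tnfrsf12a. Depth limits the members under about 1 CPM, among them Cd70, Tnfrsf11a and Eda2r, and 8 members failed the filter.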
